A study of Mus musculus with 6 samples.

Results

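The stem cell marker genes Hlf, Mllt3, Procr, Fgd5, Tie1, Tek, Esam, Ly6a, Gpr56 and Pdzk1ip1 were followed in RNA-seq counts of sorted mouse bone marrow cells that carry the NUP98-HOXD13 fusion or lack it. These 10 genes were taken by symbol from the 17523 rows of the count table, and 10 of 10 had a row. Of the 12013 rows with enough counts to test, 7 belonged to these markers, and Procr, Fgd5 and Esam fell under the low-count filter. The libraries came from 3 wild-type (WT) and 3 NHD13 samples of C57BL/6 mice, named here by group and replicate number (WT-1 to WT-3 and NHD13-1 to NHD13-3). NHD13 denotes a gene fusion that joins NUP98, a nucleoporin, to the homeodomain factor HOXD13 and is used to model myelodysplastic syndrome, and WT samples lack it. The series calls the FACS-sorted cells hematopoietic stem cells (HSCs), without a further genotype or treatment in the labels. Not given in the sources used here are the animals' age, the promoter that drives the fusion and the sort's surface markers. It is therefore not known whether a marker described below was also part of the gate.

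Hematopoietic stem cells are rare marrow cells that renew themselves and give rise to every blood lineage. They are recognised by transcription regulators that hold the stem cell state (Hlf, Mllt3), by surface proteins used to purify them (Procr, Ly6a, Esam, Gpr56), and by genes shared with endothelial cells (Tie1, Tek, Fgd5, Esam), with which blood stem cells share an embryonic origin. None of these genes is restricted to stem cells among all tissues, and several are also expressed in vessels or in maturing blood cells.

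Total counts ran from 12541538 to 14388772 per library, so that 1 count was worth 0.0691 to 0.0790 CPM (counts relative to a library's TMM-scaled total) and 3 counts, the level that a count of 0 allows, 0.207 to 0.237 CPM. The row named for the fusion had 0 counts in the 3 WT libraries and 185, 179 and 167 in NHD13-1, NHD13-2 and NHD13-3. NHD13-1 stood apart in its group, with a Spearman correlation across genes of 0.989 and 0.988 with NHD13-2 and NHD13-3, against 0.997 between those. It was also nearer to WT, with correlations of 0.979 to 0.986 with the WT libraries. Those of NHD13-2 and NHD13-3 with WT were 0.967 to 0.972. Xist counts were 5852, 13700 and 15472 in WT and 34, 28 and 9885 in NHD13, while 4 Y-linked genes summed to 192, 110 and 113 CPM in WT and 252, 280 and 175 CPM in NHD13. RNA of both kinds was thus present in WT libraries and in NHD13-3, and the Y-linked share of counts was used as a covariate in an alternative fit. Because this share was mostly higher in NHD13, it is partly tied to the group. The fit therefore cannot fully separate the 2, and a call lost in it cannot be assigned to either. The labels do not say that replicates came from separate animals, so the p-values reflect library-to-library spread, which may be technical.

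The labelled cell type was compared with its markers. Kit, the stem cell factor receptor of early progenitors, was abundant at 254 CPM ± 13.7 (SD, n = 3) in WT and 226 CPM ± 9.44 in NHD13. Slamf1, the CD150 surface protein of stem cells, was low at 1.07 CPM ± 0.501 and 2.40 CPM ± 0.976. The 10 markers together took 0.0201% to 0.0275% of the counts of a library, while 18 neutrophil genes took 5.52% to 7.15% in WT and 4.17% to 4.47% in NHD13. Genes of the neutrophil lineage thus took far more of the counts than the stem cell markers, and values here describe the sorted sample as a whole. In bulk RNA, fewer cells of a type and less RNA per cell cannot be told apart.

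Of the 7 tested markers, Tie1, Hlf, Tek and Ly6a fell in NHD13, Mllt3 rose, and Gpr56 and Pdzk1ip1 did not pass the test (edgeR quasi-likelihood, Benjamini-Hochberg adjusted over all tested genes, threshold 0.05). Among all tested genes 15.3% were lower and 15.0% higher. The median log2 change (NHD13 minus WT) was -0.65 over the 7 markers and 0.00 over all 12013 genes. All NHD13 libraries lay below all WT libraries for 4 of the 7 tested markers, Hlf, Tie1, Tek and Ly6a, against 22.6% of tested genes. They lay above them for 0 of the 7, against 23.5%. The untested Esam was also below in all NHD13 libraries. The call of a fall in Tie1 was made in each of 15 alternative fits, and that in Hlf in 14 of 15. For Tek it was made in 10 of 14, for Ly6a in 8 of 15, and the rise in Mllt3 in 5 of 15.

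**Figure D1:**
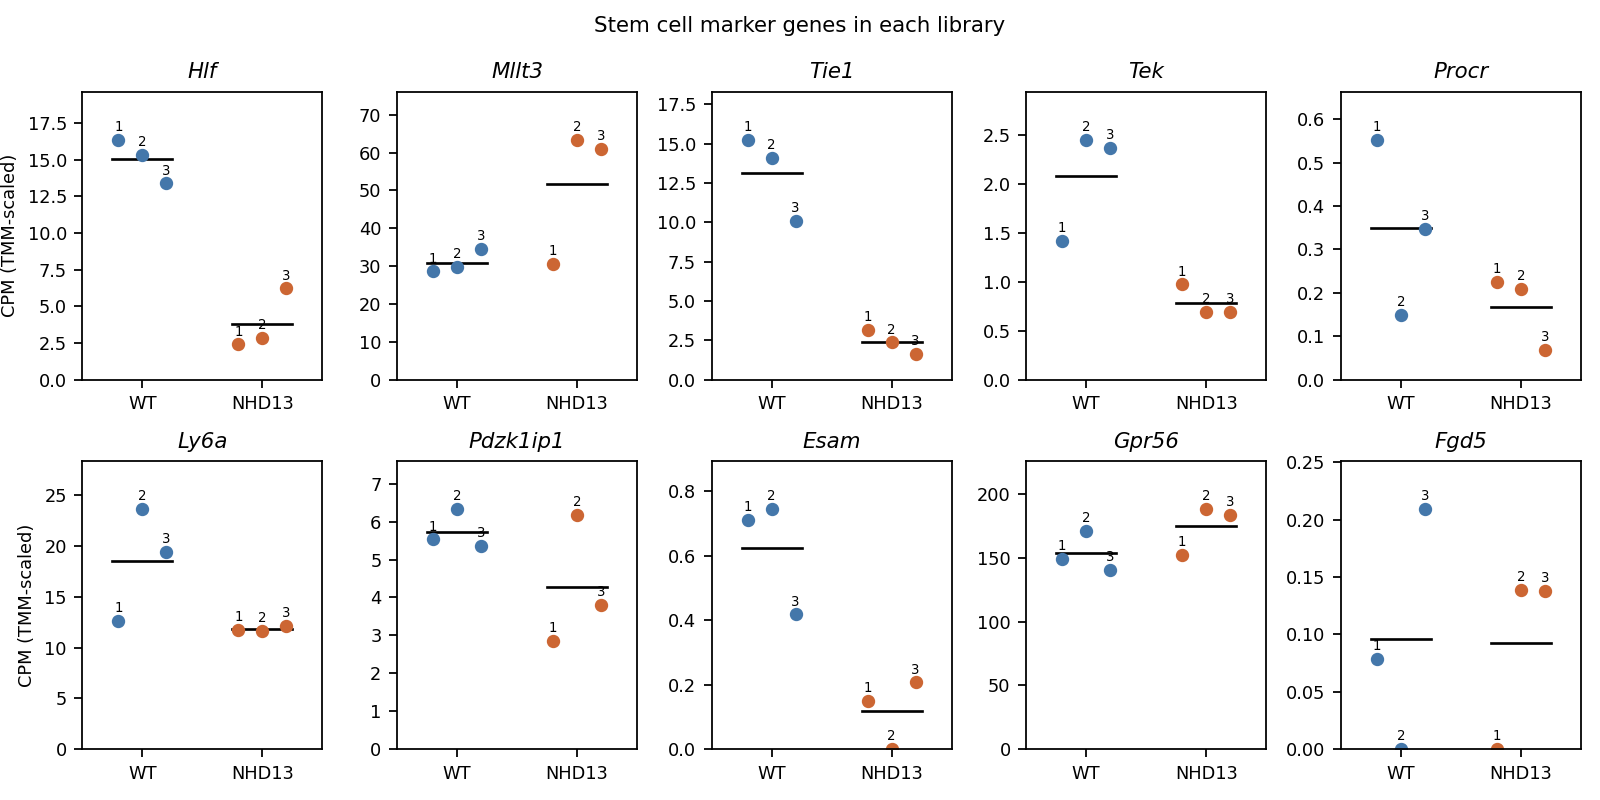
TMM-scaled CPM of each marker gene by library. Points are libraries with their replicate number, bars are group means (n = 3), and each panel has its own axis from 0. Hlf and Tie1 fell from 13.4 to 16.4 and 10.1 to 15.2 CPM in WT to at most 6.22 and 3.15 CPM in NHD13, while NHD13-1 of Mllt3 lies within the WT range.

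Hlf encodes hepatic leukemia factor, a PAR bZIP transcription factor (a leucine zipper family rich in proline and acidic residues) that supports stem cell quiescence and self-renewal. It lies on mm10 chromosome 11, from 90336536 to 90390895 on the minus strand (ENSMUSG00000003949). The WT libraries held 16.4, 15.3 and 13.4 CPM (207, 206 and 192 counts) and the NHD13 libraries 2.40, 2.85 and 6.22 CPM (32, 41 and 90 counts). All NHD13 libraries were below all WT libraries, and NHD13-3 was the highest of its group. The mean went from 15.0 CPM ± 1.51 to 3.82 CPM ± 2.09, a 3.90-fold fall (log2 -1.96, SE 0.30, 95% interval -2.64 to -1.28, edgeR adjusted p = 0.00295). Without NHD13-3 the log2 change was -2.52, and with the Y-linked covariate the fall no longer passed (log2 -1.59, adjusted p = 0.0817).

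The 3 genes with the profile most like that of Hlf over the 6 libraries were Epx, Prg3 and Prg2, which encode granule proteins of eosinophils (Pearson r of log2 CPM 0.998, 0.998 and 0.997). Epx went from 193 to 19.6 CPM and Prg2 from 920 to 187 CPM. A list of 14 mast cell, basophil and eosinophil genes summed to 1543 to 1815 CPM in WT and 296 to 539 CPM in NHD13. NHD13-3 was again the highest of its group. The list includes Epx and Prg2, which hold most of its mean WT sum. Its likeness to Hlf is therefore in large part a restatement of the correlations above. Of its 10 tested genes 8 fell and 0 rose, and 0 of the 14 were at 0 in every library. The part of these cells in the Hlf result was not tested. Mmd, the nearest protein-coding gene with a row beyond the end of Hlf at 57.9 kb, fell from 24.8 CPM ± 1.64 to 14.2 CPM ± 3.46 (log2 -0.81, adjusted p = 0.00779).

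Of 3 other tested PAR bZIP and related genes, 0 rose and 0 fell. Tef, the closest by p, had a WT mean of 17.9 CPM ± 0.985 and an NHD13 mean of 22.1 CPM ± 1.75 (adjusted p = 0.052, and 0.0263 without NHD13-1), and Dbp and Nfil3, a repressor at the same DNA sites, had adjusted p of 0.815 and 0.123.

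Mllt3 (AF9) encodes a YEATS-domain reader of acetylated histones that recruits the super elongation complex and DOT1L to genes and supports stem cell maintenance. It lies on chromosome 4, from 87769925 to 88033364 on the minus strand. The WT libraries held 28.6, 29.8 and 34.5 CPM and the NHD13 libraries 30.6, 63.4 and 60.9 CPM. NHD13-2 and NHD13-3 were above all WT libraries, and NHD13-1 lay within the WT range, so the groups overlapped. The WT mean of 30.9 CPM ± 3.11 rose to 51.6 CPM ± 18.3, by 1.67-fold (log2 0.74, SE 0.24, 95% interval 0.19 to 1.29, adjusted p = 0.0472). Without NHD13-1 the log2 change was 1.01 (adjusted p = 1.56e-06), and the call was lost without WT-1 (0.136), WT-2 (0.148), WT-3 (0.0993), NHD13-2 (0.162) or NHD13-3 (0.148). It was also lost under upper-quartile scaling (adjusted p = 0.0606), without a low-count filter (0.166), with a minimum count of 30 (0.0584), by limma-voom (0.0847) and with the Y-linked covariate (0.204).

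In a list of erythroid genes, 9 of 12 tested genes rose and 0 fell. Its WT sums were 2268 to 2598 CPM, and NHD13-1, NHD13-2 and NHD13-3 had 2975, 5075 and 4859 CPM, so that NHD13-1 was again the lowest of its group. Since NHD13-1 was nearer to WT across all genes, this shared order need not be particular to Mllt3 and the erythroid list. The part of erythroid cells in the Mllt3 result was not tested. Of 14 other tested genes of the super elongation complex and its partners, 3 rose and 2 fell. Dot1l, the H3K79 methyltransferase, rose from 105 CPM ± 7.29 to 140 CPM ± 8.53 (log2 0.42, adjusted p = 0.00572). The elongation factor gene Ell2 rose from 38.2 to 67.5 CPM, a call lost without WT-1, WT-2, WT-3, NHD13-2 or NHD13-3 (adjusted p up to 0.072). Mllt6, an MLL fusion partner, fell from 15.1 CPM ± 1.02 to 7.97 CPM ± 1.83 (log2 -0.92, adjusted p = 0.00555), and Aff3 fell from 28.3 to 21.8 CPM, a call lost without WT-2, WT-3 or NHD13-2. Of these 14 genes, 1 rose when WT-2, WT-3, NHD13-2 or NHD13-3 was left out, and 1 fell without WT-2, WT-3 or NHD13-2. Without NHD13-1, 5 rose and 4 fell, and with the Y-linked covariate 0 rose and 0 fell. Focad, the nearest protein-coding gene with a row beyond the start of Mllt3 at 61.3 kb, rose from 40.2 CPM ± 3.05 to 58.6 CPM ± 10.5 (adjusted p = 0.0161). This call was lost without WT-2, WT-3, NHD13-2 or NHD13-3 (up to 0.0747).

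Tie1 and Tek (Tie2) encode the Tie family of receptor tyrosine kinases. Tek binds the angiopoietins, of which angiopoietin-1 keeps stem cells quiescent in their niche, and Tie1 modulates Tek signalling. Tie1 lies on chromosome 4 from 118471191 to 118490061 on the minus strand, and Tek on the same chromosome from 94739289 to 94874976 on the plus strand. Tie1 held 15.2, 14.1 and 10.1 CPM in WT and 3.15, 2.36 and 1.66 CPM in NHD13 (193, 189 and 145 against 42, 34 and 24 counts). The groups were far apart, with the lowest WT library more than 3 times the highest NHD13 library. The mean went from 13.1 CPM ± 2.70 to 2.39 CPM ± 0.745, a 5.50-fold fall (log2 -2.46, SE 0.25, 95% interval -3.03 to -1.89, adjusted p = 0.000569). Over the alternatives the log2 change ran from -2.92 to -2.26 and the adjusted p was at most 0.00714. Tie1 had the largest fall of the 7 tested markers, and 0.932% of all tested genes had a lower log2 change.

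Tek held 1.42, 2.46 and 2.37 CPM in WT and 0.974, 0.695 and 0.691 CPM in NHD13, which is 18, 33 and 34 against 13, 10 and 10 counts. WT-1 was the lowest WT library and NHD13-1 the highest NHD13 library, and the groups did not overlap. The mean went from 2.08 CPM ± 0.573 to 0.787 CPM ± 0.163 (log2 -1.41, SE 0.32, 95% interval -2.13 to -0.69, 2.65-fold, adjusted p = 0.0122). The call was lost without WT-2 (adjusted p = 0.057), WT-3 (0.0587) or NHD13-2 (0.0539), and with the Y-linked covariate (log2 -0.95, adjusted p = 0.291). Among 3 other tested genes of the Tie and angiopoietin list, 1 fell and 0 rose. Angpt1, the ligand of Tek, had a WT mean of 41.2 CPM ± 2.81 and an NHD13 mean of 33.9 CPM ± 4.10 (adjusted p = 0.0704, and 0.00303 without NHD13-1). The adaptor gene Grb14 fell from 1.06 to 0.335 CPM (adjusted p = 0.0327), and this call held only without NHD13-1 among the fits that left out 1 library. Dok2, an adaptor of Tek, was at 14.3 and 16.6 CPM (adjusted p = 0.376).

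The promoter windows of Hlf and Tek are shown because these are the fallen markers whose window, the 250 bases before the RefSeq start, holds no annotated exon. They come from RefSeq for GRCm38.p6, at chr11:90390918-90391167 on the minus strand and chr4:94739039-94739288 on the plus strand. The stretch just after the RefSeq start was found in 0 annotated transcripts of Hlf and in 1 of Tek, so the Hlf start is less certain. Capitals mark GGAA, the core letters bound by ETS factors, or TTCC, the same letters on the other strand.
Hlf: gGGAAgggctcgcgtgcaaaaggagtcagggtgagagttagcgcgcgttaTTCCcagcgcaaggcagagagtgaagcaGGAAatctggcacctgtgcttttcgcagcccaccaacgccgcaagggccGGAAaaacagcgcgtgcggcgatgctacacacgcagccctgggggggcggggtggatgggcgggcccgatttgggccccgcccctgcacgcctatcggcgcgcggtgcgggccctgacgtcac
Tek: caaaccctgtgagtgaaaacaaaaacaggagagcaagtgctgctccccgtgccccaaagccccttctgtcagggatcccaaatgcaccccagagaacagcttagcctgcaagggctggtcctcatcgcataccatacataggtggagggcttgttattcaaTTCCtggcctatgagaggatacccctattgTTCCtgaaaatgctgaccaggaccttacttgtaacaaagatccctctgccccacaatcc
Hlf had 4 such matches and 67.2% GC, and Tek 2 matches and 51.2% GC. Over the promoter windows of the same length, 32536 in all, 93.4% held at least 1 match, with a median of 3 matches and a median GC of 52.4%. Neither strand of these windows held GATAA (in 22.5% of all windows), TGATNNAT (7.66%) or TTANGTAA (2.03%).

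Esam encodes an adhesion molecule of endothelial tight junctions that also marks stem cells (chromosome 9, 37528078 to 37538319). It had 9, 10 and 6 counts in WT and 2, 0 and 3 in NHD13, or 0.711, 0.744 and 0.418 CPM against 0.150, 0 and 0.207 CPM. All NHD13 libraries were below all WT libraries, at or under the level that 3 counts give. The summed counts were 25 and 5, a ratio of 0.191 per total count with an exact 95% counting interval of 0.0571 to 0.508. Without the low-count filter Esam had an edgeR log2 change of -2.30 (adjusted p = 0.0288). Of 5 other tested genes of endothelial junctions, 2 fell and 0 rose. Pecam1 (CD31) fell from 65.5 CPM ± 9.09 to 28.1 CPM ± 10.9 (log2 -1.23, adjusted p = 0.00662). Of the 5 genes, 1 fell when WT-1, WT-2 or WT-3 was left out, and 0 with the Y-linked covariate.

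Fgd5 encodes an exchange factor for the GTPase Cdc42 and is a reporter gene for stem cells (chromosome 6, 91978878 to 92076004). It had 1, 0 and 3 counts in WT and 0, 2 and 2 in NHD13, so no library exceeded 3 counts. The sums of 4 and 4 counts gave a ratio of 0.955 (95% counting interval 0.178 to 5.13), and a difference was not detectable at this depth. The related genes were better covered, and of 11 tested FGD and Cdc42 genes 1 rose and 5 fell. Fgd6 rose from 11.1 CPM ± 0.737 to 31.2 CPM ± 9.21 (log2 1.48, adjusted p = 0.00236), and Fgd2, an exchange factor of antigen-presenting cells, fell from 30.4 CPM ± 1.95 to 13.8 CPM ± 4.82 (adjusted p = 0.00581). With the Y-linked covariate 0 of the 11 fell, and 2 fell without WT-2, WT-3, NHD13-2 or NHD13-3.

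Other endothelial genes were set beside Tie1, Tek and Esam. Of 21 endothelial genes with a row, 11 were under 10 counts in every library. Cdh5, the defining VE-cadherin gene, had 0, 5 and 4 counts in WT and 0, 0 and 0 in NHD13. Kdr (VEGFR2) had 2, 7 and 3 against 2, 2 and 0 counts, Robo4 4, 7 and 3 against 0, 0 and 0, and Sox18 0 in every library. The endothelial list without Tie1, Tek and Esam summed to 158 to 166 CPM in WT and 81.9 to 109 CPM in NHD13. Most of that sum came from Pecam1 and Eltd1, an adhesion receptor that fell from 55.8 CPM ± 2.84 to 23.3 CPM ± 4.54 (log2 -1.26, adjusted p = 0.00061). Of the 6 other tested genes these 2 fell and 0 rose. The number that fell was 1 with the Y-linked covariate, and 1 gene rose when WT-1 or NHD13-1 was left out. The sum was thus lower in NHD13, as Tie1, Tek and Esam were, and the part of endothelial cells in the results on these markers was not tested.

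Procr encodes EPCR, the endothelial protein C receptor, which retains stem cells in the marrow (chromosome 2, 155751117 to 155755471). It had 7, 2 and 5 counts in WT and 3, 3 and 1 in NHD13, and the groups overlapped. The sums of 14 and 7 counts gave a ratio of 0.477 (95% counting interval 0.163 to 1.26), an interval that includes equal levels. Of 7 other tested genes of the protein C and thrombin pathway, 1 rose and 3 fell. F2r, the thrombin receptor PAR1, rose from 16.9 to 27.7 CPM (log2 0.71, adjusted p = 0.0026). Pros1, the cofactor protein S, fell from 7.98 CPM ± 1.18 to 2.09 CPM ± 0.432 (log2 -1.93, adjusted p = 0.000794) and Thbd, thrombomodulin, from 17.8 CPM ± 0.509 to 7.38 CPM ± 3.55 (log2 -1.28, adjusted p = 0.00925). F2rl3, the thrombin receptor PAR4, also fell (adjusted p = 0.0202), and its call was lost without WT-1, WT-2 or NHD13-3 (up to 0.0782).

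Ly6a encodes Sca-1, a lipid-anchored surface protein that is the S of the LSK stem and progenitor gate and is induced by interferon. It lies on chromosome 15, from 74994877 to 74998031 on the minus strand, in a cluster of similar Ly6 genes, and reads of close copies may be shared. The WT libraries held 12.6, 23.6 and 19.4 CPM and the NHD13 libraries 11.7, 11.6 and 12.2 CPM. WT-1 lay just above the NHD13 libraries, which were almost level among themselves. The mean went from 18.5 CPM ± 5.52 to 11.8 CPM ± 0.295, a 1.57-fold fall (log2 -0.65, SE 0.20, 95% interval -1.11 to -0.19, adjusted p = 0.0409). The call was lost without WT-2 (log2 -0.44, adjusted p = 0.151), WT-3 (0.127), NHD13-1 (0.0649), NHD13-2 (0.106) or NHD13-3 (0.092). It was also lost by limma-voom (adjusted p = 0.0625) and with the Y-linked covariate, where the log2 change was -0.17 (adjusted p = 0.739).

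Of 9 other tested genes of the Ly6 family and its relatives, 7 fell and 1 rose. Ly6e, the most abundant of those named, fell from 614 CPM ± 18.3 to 401 CPM ± 70.0 (log2 -0.62, adjusted p = 0.00575). Ly6d, a marker of lymphoid progenitors, had summed counts of 140 (WT) and 2 (NHD13). Their ratio per total count was 0.0136 (95% counting interval 0.00164 to 0.0502). Ly6i, the nearest protein-coding gene with a row on one side of Ly6a at 11.4 kb, fell from 24.9 CPM ± 6.80 to 14.0 CPM ± 0.935 (adjusted p = 0.0122). Ly6g5b rose from 3.14 to 12.0 CPM. The number that fell was 3 without WT-2, 4 without WT-3 or NHD13-3 and 1 with the Y-linked covariate, and 2 rose without NHD13-1. In the interferon response list 12 of 26 tested genes rose, among them Oasl1 from 5.32 to 21.4 CPM and Isg15 from 3.05 to 9.16 CPM, and 3 fell. The number that rose was 4 without NHD13-2 or NHD13-3, 5 without WT-1 or WT-2 and 3 with the Y-linked covariate. The number that fell in this list was 1 without WT-2 or WT-3. The part of interferon in the Ly6a result was not tested. The neutrophil list summed to 54646, 71987 and 64907 CPM in WT-1, WT-2 and WT-3 and to 41628 to 44699 CPM in NHD13, so that WT-1 was the lowest WT library for this list as for Ly6a. Of its 18 tested genes 10 fell and 0 rose, and 0 were at 0 in every library. All 10 calls were lost without NHD13-1, and all 10 with the Y-linked covariate (adjusted p 0.258 for Ltf to 0.601 for Ngp). Ctsg, Elane, Mpo and Prtn3, which had no call, passed without NHD13-1. WT-1 was likewise the lowest WT library for other lists. The multipotent progenitor list summed to 989, 1240 and 1152 CPM in the WT libraries and 545 to 685 CPM in NHD13, with 12 of 13 tested genes lower and 0 higher. The monocyte and dendritic cell list summed to 662, 909 and 875 CPM against 179.6 to 276 CPM, with 12 of 14 tested genes lower and 0 higher. The B-cell list (24.7 to 38.2 CPM in WT, 4 of 6 tested genes lower) and the T and NK cell list (11.8 to 27.1 CPM in WT, 3 of 6 lower) were also lowest in WT-1. The part of all these cells in the Ly6a result was not tested.

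Gpr56 (Adgrg1) encodes an adhesion G protein-coupled receptor of stem cells that binds extracellular matrix (chromosome 8, 94974751 to 95014217, plus strand). The WT libraries held 149, 171 and 141 CPM and the NHD13 libraries 152, 188 and 184 CPM. NHD13-1 lay within the WT range and the other two above it. The WT mean was 153 CPM ± 15.7 and the NHD13 mean 175 CPM ± 19.7 (log2 0.19, SE 0.10, 95% interval -0.05 to 0.42, adjusted p = 0.198). The interval includes no change and does not extend past a log2 rise of 0.42. Without NHD13-1 the log2 change was 0.28 and passed (adjusted p = 0.0093). Of 14 other tested adhesion receptors 1 rose and 3 fell, Lphn1 from 18.4 to 30.4 CPM (adjusted p = 0.00318), Emr4 from 5.53 to 1.52 CPM (0.00723), and Eltd1 and Gpr125. The call of Gpr125 (adjusted p = 0.0449) was lost without WT-1, WT-2, WT-3, NHD13-2 or NHD13-3 (up to 0.129). Of the 14, 6 fell without NHD13-1, 2 without WT-1, WT-2, WT-3 or NHD13-2, and 1 with the Y-linked covariate. Of 9 tested ligands and partners of Gpr56, 3 rose and 2 fell. Tgm2, the tissue transglutaminase ligand, rose from 15.3 CPM ± 2.99 to 45.2 CPM ± 16.7 (log2 1.56, adjusted p = 0.00541), and the exchange factor gene Arhgef12 rose from 27.1 to 54.5 CPM, a call lost without WT-2 (adjusted p = 0.0522). The tetraspanin gene Cd9 fell from 142 to 95.7 CPM while Cd81, another tetraspanin, rose from 105 to 131 CPM. The call of Cd81 was lost without WT-1, WT-3, NHD13-2 or NHD13-3 (up to 0.0704).

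Pdzk1ip1 (MAP17) encodes a small membrane protein that is a marker of stem cells and lies beside Tal1 (chromosome 4, 115088708 to 115093899, plus strand). The WT libraries held 5.53, 6.32 and 5.36 CPM and the NHD13 libraries 2.85, 6.18 and 3.80 CPM. NHD13-2 lay within the WT range and the other two below it. The WT mean was 5.74 CPM ± 0.514 and the NHD13 mean 4.28 CPM ± 1.72 (log2 -0.42, SE 0.27, 95% interval -1.03 to 0.19, adjusted p = 0.262). Without NHD13-2 the log2 change was -0.80 (adjusted p = 0.0463). Tal1, the nearest protein-coding gene with a row upstream, encodes a master transcription factor of blood formation. It rose from 101 CPM ± 2.26 to 170 CPM ± 38.2 (log2 0.75, adjusted p = 0.00725).

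**Figure D2:**
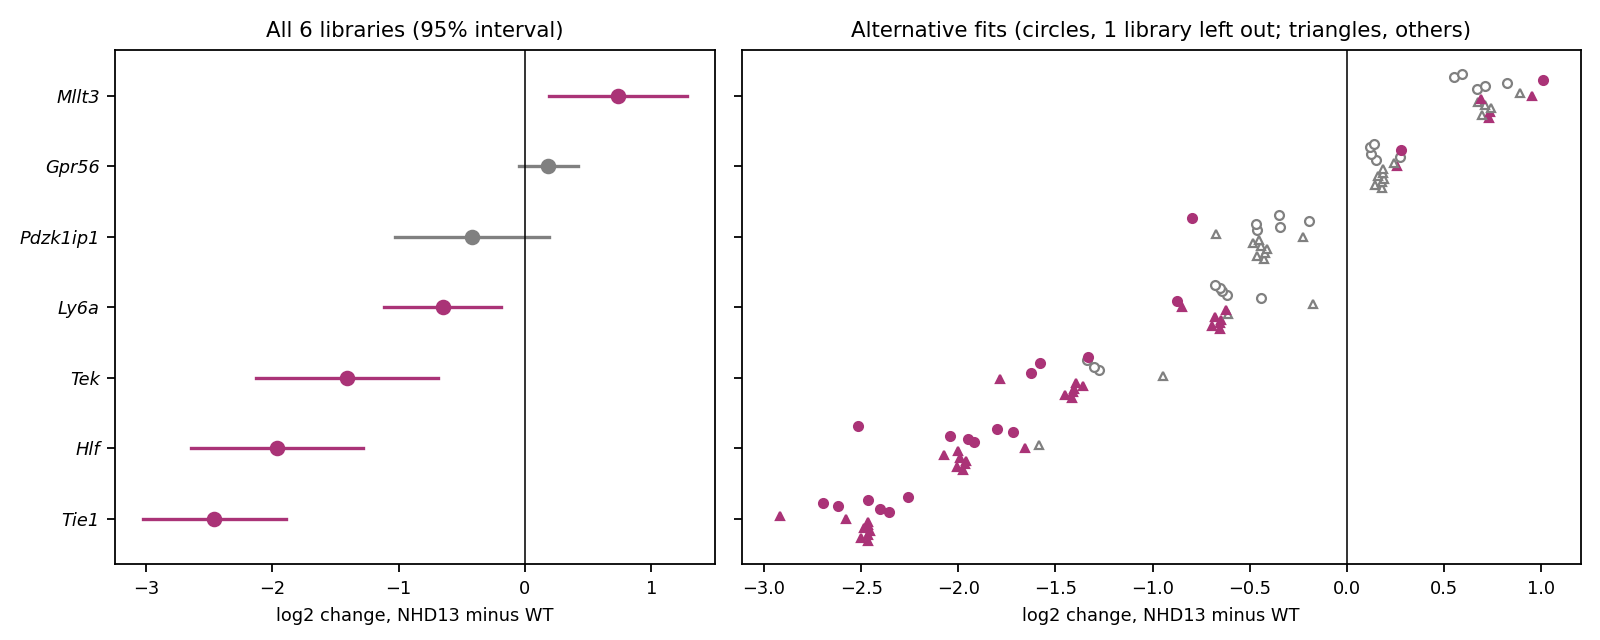
Log2 change of the 7 tested markers, NHD13 minus WT. The left panel shows the estimate with its 95% interval over 6 libraries, the right panel the estimates of the alternative fits (circles with 1 library left out, triangles other settings), and purple marks an adjusted p under 0.05. Tie1 is purple in 15 of 15 alternatives, and Mllt3 in 5 of 15.

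Levels were compared between genes as CPM per kb of annotated exon, with all annotated exons of a gene merged. This scales for length only roughly, since the transcripts expressed here are not known, and the order of genes is approximate. In WT, Gpr56 was highest at 28.3 CPM per kb, followed by Ly6a at 15.4. Pdzk1ip1 (3.23), Tie1 (2.67), Mllt3 (2.58) and Hlf (2.25) came next, and neighbours in this order overlapped: the WT range was 3.02 to 3.56 CPM per kb for Pdzk1ip1, 2.05 to 3.10 for Tie1 and 2.38 to 2.87 for Mllt3, and the highest Hlf library reached 2.45. Tek (0.442), Esam (0.218), Procr (0.172) and Fgd5 (0.0153) were lowest, and the ranges of Esam and Procr overlapped. In NHD13 the order of the middle genes was different. Mllt3 followed Gpr56 and Ly6a at 4.30 CPM per kb, ahead of Pdzk1ip1 at 2.41, although the NHD13 ranges overlapped (2.55 to 5.28 and 1.60 to 3.48). Hlf and Tie1 were at 0.572 and 0.486 with overlapping ranges of 0.359 to 0.930 and 0.337 to 0.640.

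**Figure D3:**
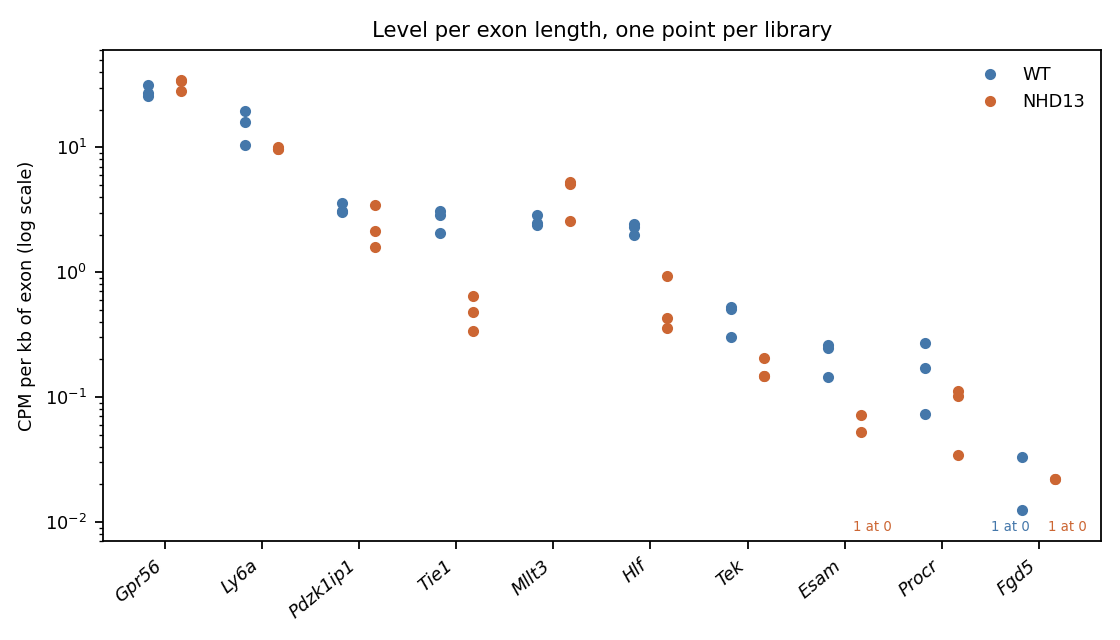
Level of each marker as CPM per kb of exon on a log axis, with a point for each library, WT in blue and NHD13 in orange, ordered by the WT mean. Libraries with a count of 0 are written at the bottom. Gpr56 is highest at a WT mean of 28.3 CPM per kb and Fgd5 lowest at 0.0153.

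The profiles of the tested markers over the 6 libraries were compared by Pearson's r of log2 CPM, as a description with no test, since the points share the group difference and the libraries. Among the markers, Tek and Ly6a (0.904), Tie1 and Tek (0.890) and Hlf and Tie1 (0.838) were most alike. Mllt3 and Gpr56 (0.784), which share a low NHD13-1, ran against Tie1 (-0.81 and -0.62). Outside the markers, the profile most like each was Lrrc8c for Mllt3 (0.999), Mgat1 for Tie1 (0.999), Slc2a6 for Tek (0.998), Kctd2 for Ly6a (0.989), Ppdpf for Gpr56 (0.993) and Hbp1 for Pdzk1ip1 (0.984).

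**Figure D4:**
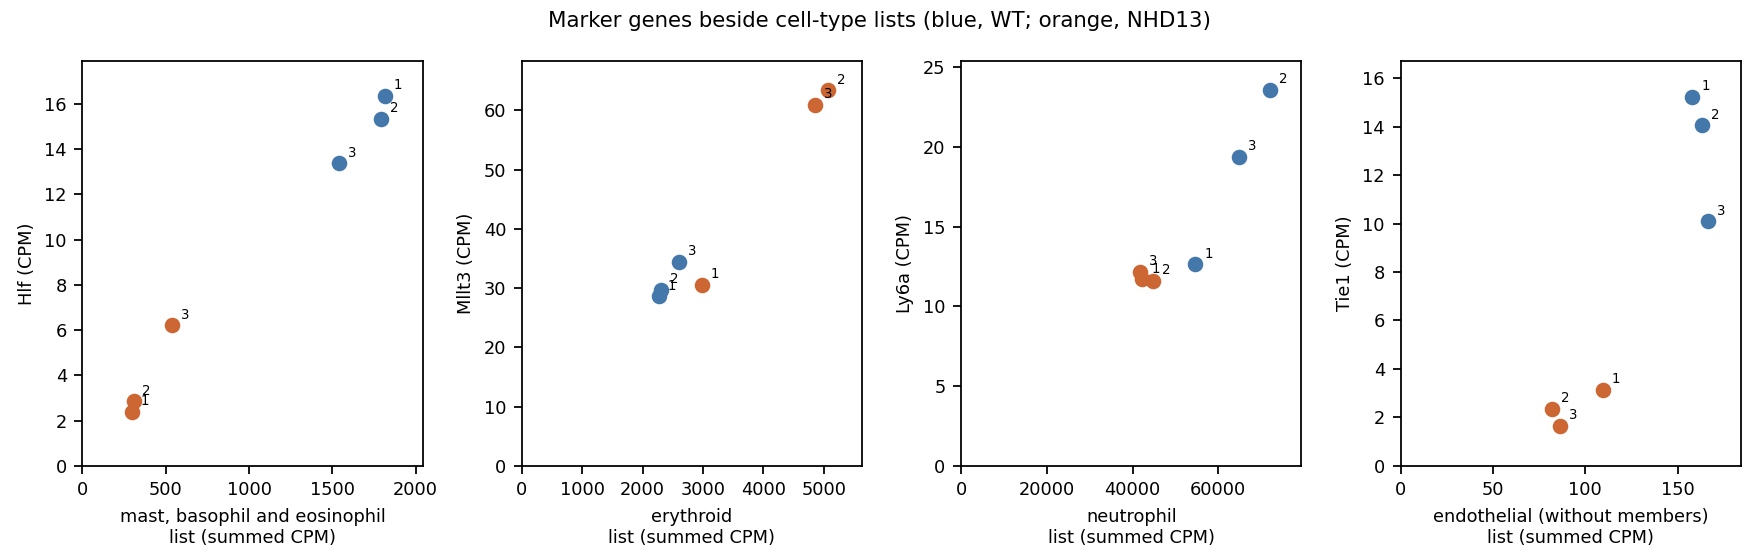
Level of Hlf, Mllt3, Ly6a and Tie1 (CPM) in each library against the summed CPM of a cell type list, WT in blue and NHD13 in orange with replicate numbers. These pairs were chosen after their values were seen. The mast cell, basophil and eosinophil list includes Epx and Prg2, which were picked for their likeness to Hlf. NHD13-1 was the NHD13 library nearest to WT across genes. NHD13-3 has the highest Hlf level (6.22 CPM) and the highest mast cell, basophil and eosinophil sum (539 CPM) of its group, and NHD13-1 the lowest Mllt3 level (30.6 CPM) and erythroid sum (2975 CPM).

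Other stem cell genes went in both directions, as tested genes did in general. Of 20 further stem cell markers tested, 5 rose and 6 fell, with a median log2 change of -0.09. Over all tested genes 15.0% rose and 15.3% fell. Mecom, a zinc finger factor required by stem cells, rose from 1.01 CPM ± 0.290 to 6.76 CPM ± 2.12 (log2 2.73, adjusted p = 0.00105) and its relative Prdm16 from 3.80 CPM ± 0.956 to 12.4 CPM ± 3.63 (log2 1.72, adjusted p = 0.0027). Cd34, a sialomucin of progenitors, fell from 175 CPM ± 3.11 to 47.0 CPM ± 17.7 (log2 -1.90, adjusted p = 0.000922) and Itga2b (CD41) from 43.4 CPM ± 6.04 to 20.9 CPM ± 1.92 (log2 -1.05, adjusted p = 0.000843). Meis1, a homeobox cofactor of HOX proteins, fell from 12.6 CPM ± 2.27 to 4.49 CPM ± 0.371 (log2 -1.49, adjusted p = 0.000843). Slamf1 did not pass (log2 1.16, adjusted p = 0.0618, and 0.0489 without NHD13-3). The number that rose was 3 without WT-3, NHD13-2 or NHD13-3, and 10 fell without NHD13-1. With the Y-linked covariate 2 rose and 2 fell.

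The MolO list, genes tied to functional stem cells in single-cell work, includes several of the markers. Of its 19 other tested genes 2 rose and 7 fell, against 15.0% and 15.3% of all tested genes, with a median log2 change of -0.38. Neo1, a guidance receptor gene, had summed counts of 3 (WT) and 366 (NHD13), a ratio per total count of 117 (95% counting interval 39.6 to 568, adjusted p = 0.00098). Ctsf, a cathepsin gene, fell from 2.83 CPM ± 0.202 to 0.590 CPM ± 0.349 (log2 -2.24, adjusted p = 0.00357), the phosphatase gene Ptpn14 from 11.6 to 3.25 CPM (0.00468) and the interferon-induced Ifitm1 from 14.2 to 5.16 CPM (0.00338). The number that fell was 3 without WT-2 or WT-3, 10 without NHD13-1 and 0 with the Y-linked covariate, and 1 rose without WT-2, WT-3, NHD13-2 or NHD13-3.

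**Figure D5:**
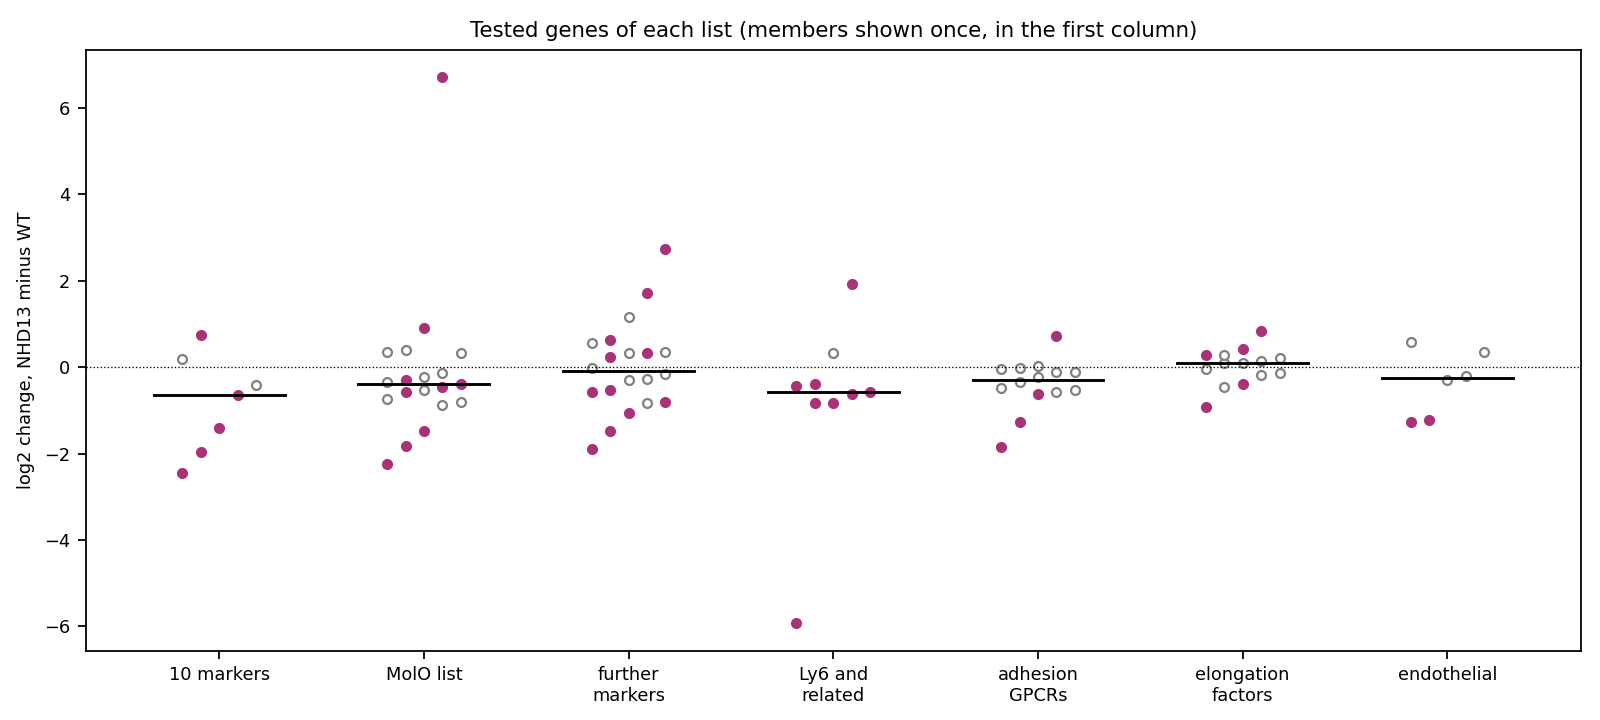
Log2 change, NHD13 minus WT, of the tested genes of each list, with the 7 tested markers shown once, in the first column. Filled points had an adjusted p under 0.05 and bars are medians, at -0.65 for the markers, -0.38 for the MolO list and -0.09 for the further stem cell markers.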

How the data were processed

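RNA was measured in 3 WT and 3 NHD13 libraries. The authors deposited a table of raw integer counts, 1 row a gene, whose columns were tied to the samples through the group letters and replicate number in the header. Bowtie2 2.2.1, HTSeq 0.5.4p3 and mm10 were used, per the submitters' processing notes. Not given in the sources used here are the annotation, the strand setting and any filter on reads. Of 17523 entries, 719 were 0 in every library, 0 named no gene, and 0 columns were left out.

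Genes were kept by filterByExpr (minimum count 10), scaled by TMM and tested with the quasi-likelihood F test of edgeR 4.0.16 (R 4.3.3, robust, two-sided), with Benjamini-Hochberg adjustment over all 12013 genes and a threshold of 0.05. Values are CPM, as mean ± SD over 3 libraries. The script was tested on simulated data. Ratios of summed counts have exact (Clopper-Pearson) 95% intervals. Intervals and the floor of 3 counts cover counting error only. Profiles were correlated on log2 CPM (prior count 2).

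The members and gene lists were chosen with earlier results of these data known. All 10 members are named, with some or all of the 4 tested genes of lowest p from each list. The 3 genes most correlated with Hlf and the gene most correlated with each other tested member are also named (average log2 CPM at least 2). Neighbouring genes are the nearest protein-coding genes with a row. Slamf1, Prdm16, Aff3 and the endothelial genes under the filter were named after their values were seen. Alternatives were DESeq2 1.42.0, limma-voom 3.58.1, other scalings and filters, the replicate block, the Y-linked covariate and leaving out libraries. Positions are from GENCODE vM21 (GRCm38, which is mm10), with Gpr56 matched as Adgrg1, and promoters from RefSeq. RefSeq entries were matched by symbol for 8 of the 10 markers. Some genes of the lists are not reported here.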

Additional observations from a re-analysis of the deposited data

How the results depend on the processing

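No tested marker changed direction in any alternative, and the median log2 change of all genes moved by at most 0.043. The number of markers that rose, 1, was 0 under upper-quartile scaling, no low-count filter, a minimum count of 30, limma-voom and the Y-linked covariate, 2 without replicate 1 of both groups, and 0 to 2 when 1 library was left out. The number that fell, 4, was 1 with the Y-linked covariate and 2 to 4 when 1 library was left out, with 2 without WT replicate 2 or WT replicate 3. Over all genes, 1799 rose and 1839 fell. These were 3244 and 3246 without replicate 1 of both groups, and 111 and 175 with the covariate. They ran from 760 to 3012 and from 957 to 2966 when 1 library was left out, highest without NHD13 replicate 1. The causes of these differences were not tested. Among the genes named outside the markers with a call, Mecom, Prdm16, Cd34, Itga2b, Pros1, Fgd6, Eltd1, Lphn1, Neo1, Ly6d, Oasl1 and Isg15 passed with the covariate (adjusted p 0.00971 for Neo1 to 0.0472 for Ly6d), and the others did not.

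The replicate block gave 1 marker that rose and 4 that fell, and changed no call of the 7 tested markers. Same-numbered libraries correlated in their deviations from the group mean by 0.25, 0.06 and 0.17 for replicates 1, 2 and 3, and NHD13 replicate 2 correlated best with WT replicate 3 (0.15), so that the numbers were not taken to pair the samples. Depth limited Procr, Fgd5 and Esam, which had at most 10 counts in any library.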
